A study of Mus musculus with 27 samples.

Results

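Chemokines are small secreted proteins that draw cells toward their source, and 9 chemokine genes of mouse embryonic fibroblasts are described here: Ccl2, Ccl5, Ccl7, Cxcl1, Cxcl5, Cxcl10, Cxcl12, Cxcl16 and Cx3cl1. They were chosen by name from the chemokine family and are 9 of the 22257 genes with a level in at least 1 library. No measured value set the choice, but it was made with earlier results of these data known. Shares of members beside those of all genes are thus a description. The cells were immortalized fibroblasts (iMEFs) that carry a conditional Setdb1 allele, which 4-hydroxytamoxifen (4OHT) deletes, and per the study's methods they came from 1 recloned line. Setdb1 is the enzyme that trimethylates histone H3 lysine 9 at endogenous retroviruses, and the study re-examined its part in silencing these elements in differentiated cells. All 27 libraries, controls included, come from these conditional cells. In the total RNA experiment, untreated cells, cells 5 days after the start of 4OHT (4OHT day 5) and a long-term knockout culture (long-term KO, over 2 weeks after 4OHT by its label) had 3 libraries each. In the siRNA experiment, cells received control siRNA (siCtrl) or Dnmt1 siRNA (siDnmt1), each without or with 4OHT, and were harvested at day 6 with 2 libraries a group. Dnmt1 is the maintenance DNA methyltransferase. In the inhibitor experiment, cells were untreated (Ctrl) or received trichostatin A (TSA, a histone deacetylase inhibitor) at 150 nM for 24 h, the MEK inhibitor PD0325901 (PD) at 1 µM for 24 h, 4OHT with harvest at day 6 (4OHT day 6), or 4OHT with PD for the last 24 h (4OHT/PD), with 2 libraries a group.

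Chemokines are named for the spacing of their first cysteines, and each class works through its own G protein-coupled receptors. CC chemokines such as Ccl2, Ccl5 and Ccl7 attract monocytes and T cells, CXC chemokines of the Cxcl1 and Cxcl5 kind attract neutrophils, and Cxcl10 is the classic interferon-inducible ligand of Cxcr3. Fibroblasts make Cxcl12 constitutively as a retention signal for Cxcr4-bearing cells, while Cxcl16 and Cx3cl1 are made as membrane proteins that the proteases Adam10 and Adam17 can shed.

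The levels are FPKM, fragments scaled to the length of the transcript and to the mapped fragments of the library, so they can be compared between genes within an experiment. The 3 experiments differed in library type and were tested apart. The depth implied by the confidence bounds of single-exon genes was 37000000 to 41800000 fragments in total RNA, 13800000 to 15700000 fragments in the siRNA libraries and 10900000 to 12700000 fragments in the inhibitor libraries. The gene-level signal of Setdb1 did not separate treated from untreated cells throughout: it was 5.16 to 5.95 FPKM in untreated and 4.16 to 6.52 FPKM in 4OHT day 5 libraries, 6.96 to 7.32 FPKM in the long-term KO, above every untreated library, and it was listed at 0 in both 4OHT/PD libraries and in 1 of the 2 4OHT day 6 libraries. An exact 0 can be a failed estimate, and the treated groups are named here by their labels. Dnmt1 was 73.4 to 80.5 FPKM with siCtrl and 10.6 to 12.2 FPKM in the 4 libraries with siDnmt1. Of 11 fibroblast markers, 10 were matched and all 10 reached 1 FPKM in every group. Several were called lower with 4OHT and TSA, and 1 with siDnmt1 (given beside those results, with those called higher). In the long-term KO, 1 of 10 tested was called higher against untreated cells and 3 against 4OHT day 5, none lower. PD called 2 higher and 1 lower, and 4OHT/PD against 4OHT called 3 higher and 1 lower. The part of these markers in the chemokine values was not tested. Ptprc, the pan-leukocyte marker, stayed at or below 0.131 FPKM in all 27 libraries. One library stood apart from its group: the second 4OHT/siCtrl library had 14.6 FPKM of the interferon regulator Irf7 against 279 in the first, below the 21.2 and 21.5 of siCtrl. The second inhibitor library with PD alone carries a sample name of the 4OHT/PD group inside its file, but Ccl5 at 11.7 and Cxcl10 at 9.03 FPKM are near those of the first PD library, another line of the same header names PD alone, and the label was kept. In bulk RNA, fewer cells of a type and less RNA per cell cannot be told apart. The labels do not say that replicates were separate cultures, so the p-values measure the spread between these libraries.

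Ccl2 was the most abundant member in the untreated cells of each experiment. In total RNA the mean level of Ccl2 was 128 ± 48.3 FPKM (SD, n = 3), that of Cxcl12 was 43.5 ± 1.13, and that of Ccl7 was 11 ± 0.504. Cxcl16 at 3.49 ± 0.814, Cxcl10 at 3.44 ± 0.400, Cx3cl1 at 3.09 ± 0.111 and Cxcl1 at 2.18 ± 0.181 FPKM followed, and the first 3 of these lay within each other's spread. Ccl5 at 1.13 ± 0.321 and Cxcl5 at 0.583 ± 0.0291 were the lowest. In the untreated cells of the inhibitor experiment the order began with Ccl2 at 278 ± 7.37 FPKM (SD, n = 2), Cxcl12 at 112 ± 2.41 and Ccl7 at 39.5 ± 2.19. The means of Cxcl10, Cxcl1 and Ccl5 there were 10.7, 9.86 and 9.69 FPKM and did not differ beyond their spread. Cxcl5, Cx3cl1 and Cxcl16 closed that order at 5.68, 5.42 and 4.51 FPKM. In siCtrl cells, Cxcl10 was 50.6 and 44.3 and Ccl5 24.0 and 20.9 FPKM. These are above the values of both other sets of untreated cells, but the experiments were normalized apart and this difference was not tested.

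**Figure D1:**
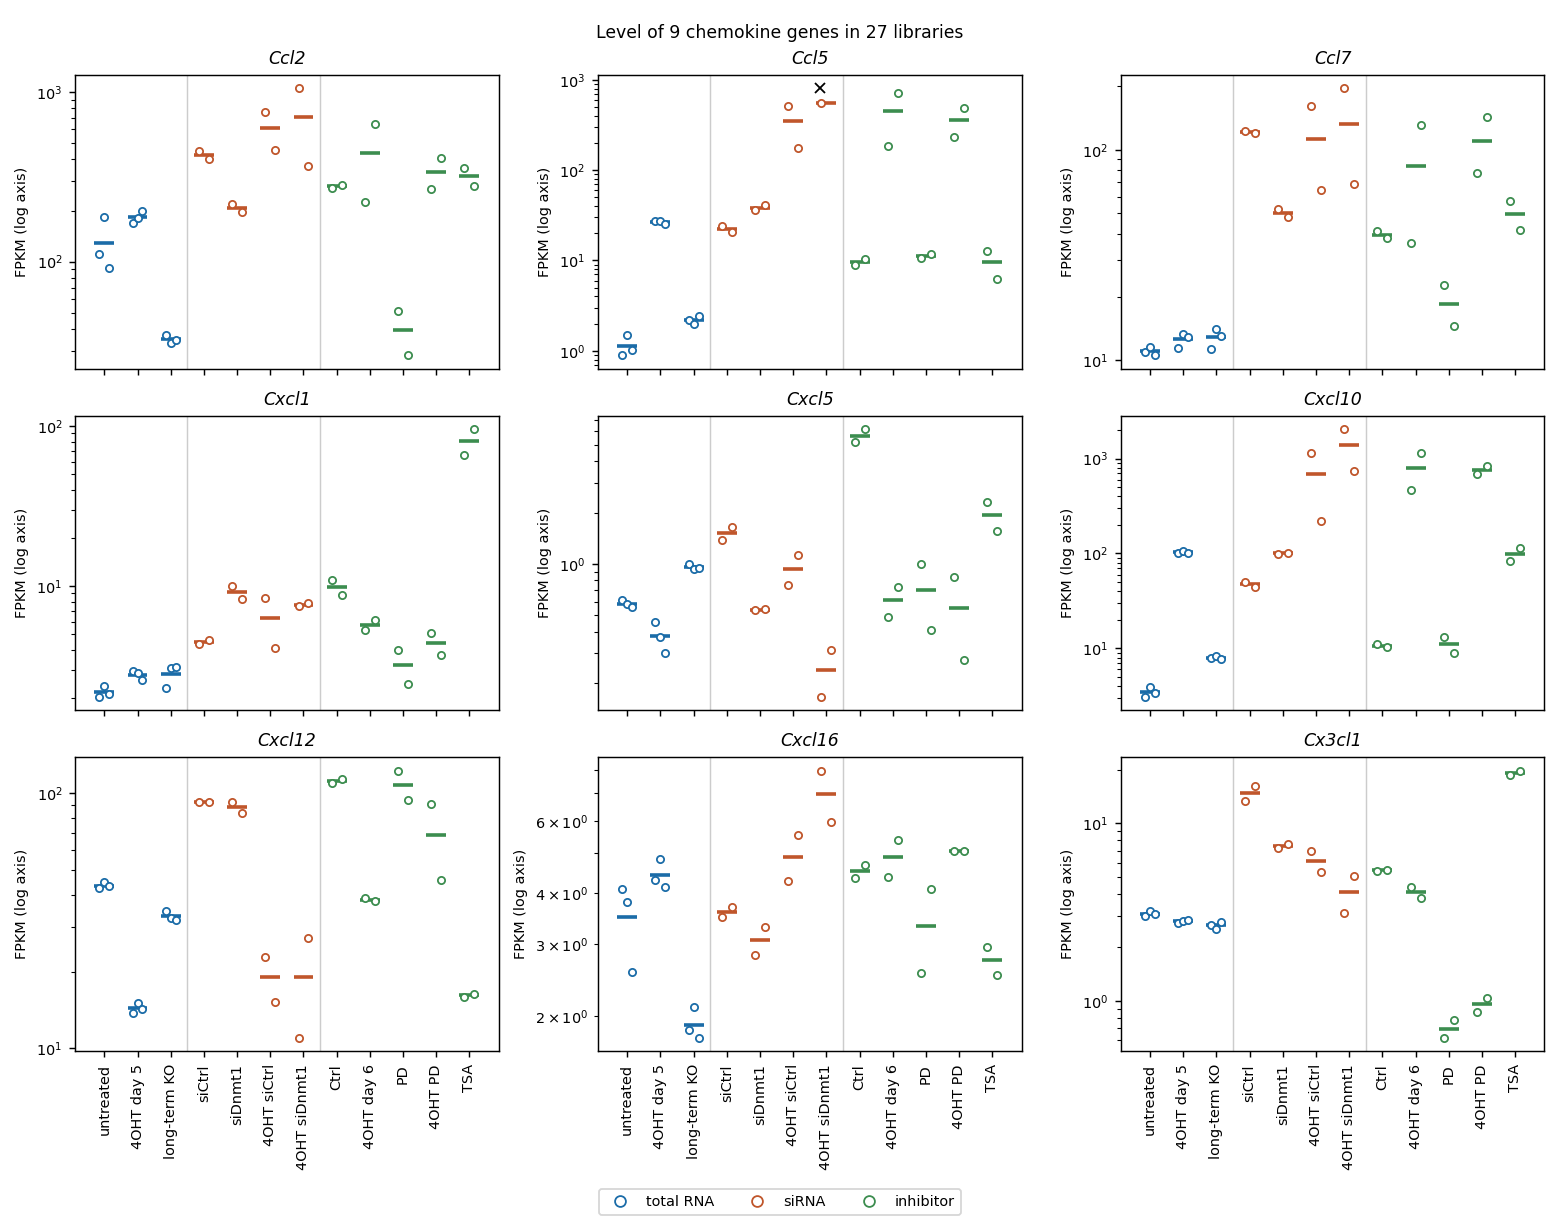
FPKM of each gene on a log axis in the 12 groups; each circle is 1 library, each bar a group mean, and colour marks the experiment. The cross for Ccl5 is the row of 813 FPKM that joins Ccl5 with its neighbour Heatr9 and that was left out of the mean; Cxcl10 and Ccl5 are high in all 4OHT groups except the long-term KO, and Cxcl12 is low in the 4OHT day 5 and 4OHT/siCtrl groups and with TSA.

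The genes lie on 4 mouse chromosomes (mm9, positions as deposited). Cxcl5 (chr5:91188323-91190651), Cxcl1 (chr5:91320270-91322141) and Cxcl10 (chr5:92775664-92777915, minus strand) share chromosome 5. Ccl2 (chr11:81849078-81850954) and Ccl7 (chr11:81859213-81861025) are neighbours on chromosome 11, where Ccl5 (chr11:83339280-83344020, minus strand) and Cxcl16 (chr11:70267735-70273486, minus strand) also lie. Cxcl12 is at chr6:117118552-117131386 and Cx3cl1 at chr8:97296079-97306326, and the members with no strand given are on the plus strand. The Cxcl10 locus lies within the span of Art3, and each locus covers the exons and introns of its gene.

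Promoter windows of 4 members are held in RefSeq's table (build GRCm38.p6), from 250 bases before the transcription start to 50 after it, and each matched the mm9 genome exactly at 1 place. They are shown because they are the members with a window in the table, which lacks Ccl2, Ccl5, Ccl7, Cxcl5 and Cxcl16, and because each of the 4 was called with 4OHT, PD or TSA. Capitals mark matches to 3 motifs, searched on both strands: ISRE (GAAA, any 2 bases, GAAA), the element bound by interferon-activated factors; NF-kB (GGG, any 3 bases, TTCC); and AP-1 (TGANTCA).
Cxcl10 (mm9 chr5:92777866-92778165, minus strand): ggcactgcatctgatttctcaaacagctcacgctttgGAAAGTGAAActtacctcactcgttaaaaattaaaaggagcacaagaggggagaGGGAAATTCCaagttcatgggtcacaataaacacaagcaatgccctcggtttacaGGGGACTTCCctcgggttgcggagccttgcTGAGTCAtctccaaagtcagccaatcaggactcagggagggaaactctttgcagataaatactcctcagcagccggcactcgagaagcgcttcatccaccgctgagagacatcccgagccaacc
Cxcl1 (mm9 chr5:91320021-91320320, plus strand): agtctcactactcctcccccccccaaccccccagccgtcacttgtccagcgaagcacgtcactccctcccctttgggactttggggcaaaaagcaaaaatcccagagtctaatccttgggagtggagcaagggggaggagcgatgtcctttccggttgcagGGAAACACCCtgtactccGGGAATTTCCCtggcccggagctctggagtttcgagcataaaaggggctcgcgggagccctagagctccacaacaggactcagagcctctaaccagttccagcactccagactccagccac
Cxcl12 (mm9 chr6:117118303-117118602, plus strand): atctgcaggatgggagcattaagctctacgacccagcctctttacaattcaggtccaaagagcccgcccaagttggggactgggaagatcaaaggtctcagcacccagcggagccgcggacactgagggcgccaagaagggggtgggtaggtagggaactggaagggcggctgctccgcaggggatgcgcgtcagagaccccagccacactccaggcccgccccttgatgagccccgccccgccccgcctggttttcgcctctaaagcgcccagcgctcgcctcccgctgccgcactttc
Cx3cl1 (mm9 chr8:97295830-97296129, plus strand): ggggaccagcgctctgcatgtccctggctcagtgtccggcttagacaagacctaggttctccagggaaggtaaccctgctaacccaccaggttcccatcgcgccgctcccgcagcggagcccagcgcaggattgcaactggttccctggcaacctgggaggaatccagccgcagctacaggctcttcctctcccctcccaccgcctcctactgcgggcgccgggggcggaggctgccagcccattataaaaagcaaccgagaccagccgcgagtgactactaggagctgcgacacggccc

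The Cxcl10 window held all 3 motifs. Its ISRE match began 213 bases before the start, its NF-kB matches began 159 and 104 bases before it, and its AP-1 match, which reads the same on both strands, began 74 bases before it. The Cxcl1 window held NF-kB matches only: 1 began 89 bases before the start, and a pair on opposite strands that overlap by all but 1 base at each end began 71 and 70 bases before it. None of the 3 motifs was in the windows of Cxcl12 and Cx3cl1. Among all 32851 windows of this length in the table, 3.44% held the ISRE letters, 5.56% the NF-kB letters and 7.81% the AP-1 letters. The Cxcl12 and Cx3cl1 windows had 20 and 19 CpG dinucleotides, against 10 in each of the other windows and a median of 7 over the table. A letter match is a description and not a site.

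**Figure D2:**
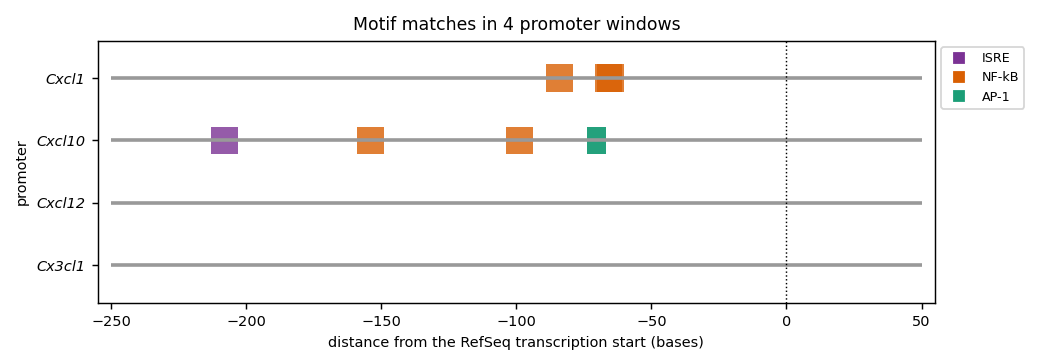
Motif matches (coloured boxes) along the 4 promoter windows (grey lines); the x axis is the distance in bases from the transcription start, marked by the dotted line. The ISRE match is in the Cxcl10 window, NF-kB matches are in the Cxcl10 and Cxcl1 windows, and the lines of Cxcl12 and Cx3cl1 carry no box.

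The chemokines of fibroblasts after acute deletion of Setdb1 were addressed by 4OHT against untreated cells in all 3 experiments. No cells without the conditional allele received 4OHT. An effect of 4OHT itself thus cannot be told apart from loss of Setdb1. At day 5, the interferon-inducible Cxcl10 and Ccl5 rose 30.0-fold and 23.6-fold in mean level and Cxcl12 fell to 0.330 of its mean, while the other 5 members tested did not pass the test. A gene was called where limma's adjusted p, over all genes tested, was under 0.05 and the fold change was at least 2. By this rule 3 of 8 members tested were called, 2 of them higher, against 3.38% of the 10147 genes tested (2.13% higher, 1.25% lower), and groups did not overlap in 51.2% of genes tested. The median log2 fold change was 0.35 over the members tested and 0.00 over all genes.

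Cxcl10 was 3.09, 3.87 and 3.34 FPKM in the untreated libraries and 101, 107 and 100.3 FPKM in those of 4OHT day 5. All 3 treated libraries thus lay far above the untreated ones and close to one another. The log2 fold change on the log2(FPKM + 0.1) scale was 4.87 ± 0.08 (SE; limma adjusted p = 1.94e-08). Ccl5, a T cell and monocyte attractant that infected cells make, was 0.889, 1.5 and 1.02 FPKM before and 27.5, 27.1 and 25.5 FPKM after, with a log2 fold change of 4.47 ± 0.17 (limma adjusted p = 9.74e-07). The groups did not overlap, although the first untreated value rests on few fragments, with Cufflinks bounds of 0 to 1.86 FPKM. Cxcl12 was 42.6, 44.8 and 43.3 FPKM in untreated and 13.8, 15 and 14.2 FPKM in treated libraries, a log2 fold change of -1.59 ± 0.05 (limma adjusted p = 2.33e-07). These calls held without any 1 library. Of the 10 fibroblast markers tested, 1 was also called lower, the collagen gene Col3a1 (-1.47).

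The monocyte attractants Ccl2 and Ccl7 did not pass the test at day 5. Ccl2 was 110.4, 183 and 91.6 FPKM in untreated and 169, 182 and 199 FPKM in treated libraries, and the groups overlapped (log2 fold change 0.57 ± 0.23, limma adjusted p = 0.0862). Ccl7 ran from 10.6 to 11.6 FPKM and from 11.5 to 13.3 FPKM. The neutrophil attractant Cxcl1 was 2.03 to 2.38 FPKM in untreated and 2.57 to 2.94 FPKM in treated libraries, which did not overlap but passed neither the fold limit nor the p threshold (log2 fold change 0.35, limma adjusted p = 0.0674). The membrane-bound Cxcl16 (2.56 to 4.09 and 4.13 to 4.83 FPKM) and Cx3cl1 (2.99 to 3.21 and 2.75 to 2.86 FPKM) also gave no call. Cxcl5 did not reach 1 FPKM in any total RNA library and was not tested there.

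At day 6 in the inhibitor experiment, Cxcl10 and Ccl5 again were called higher and Cxcl12 lower, and Cxcl5 was also called lower. Here 4 of 9 members were called, 2 higher and 2 lower, against 11.1% of 11798 genes tested (4.98% higher, 6.15% lower), and groups did not overlap in 69.1%. The median log2 fold change of the members was 0.11, beside 0.00 over all genes. Cxcl10 was 11.1 and 10.3 FPKM in Ctrl and 465 and 1131 FPKM in 4OHT day 6 libraries (log2 fold change 6.07 ± 0.39, limma adjusted p = 0.000142). Ccl5 was 9.0 and 10.4 FPKM in Ctrl and 187 and 719 FPKM after 4OHT (log2 fold change 5.23 ± 0.63, limma adjusted p = 0.00205). Both treated libraries were far above both controls, but the second was above the first by a multiple: Irf7 was 277 FPKM in the second against 99.5 in the first, and without the first the log2 fold changes were 6.71 for Cxcl10 and 6.20 for Ccl5. Without the second they were 5.43 and 4.26.

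Cxcl12 was 110.2 and 114 FPKM in Ctrl and 39.0 and 37.7 FPKM in 4OHT day 6 libraries (log2 fold change -1.54 ± 0.28, limma adjusted p = 0.00850). Cxcl5, which attracts neutrophils through Cxcr2, was 5.17 and 6.18 FPKM in Ctrl and 0.490 and 0.731 FPKM after 4OHT (log2 fold change -3.04 ± 0.52, limma adjusted p = 0.00696). Neither gene's groups overlapped. Fibroblast markers moved with them: 6 of 10 tested were called lower and none higher (median -1.11), with Col3a1 at -3.76 and Pdgfrb at -1.66, while the summed level of the list was 2948 to 3038 FPKM against 4065 to 4319 FPKM in Ctrl. Their part in the chemokine values was not tested. Of these calls, Cxcl12 was lost without Ctrl replicate 1 (adjusted p = 0.0534) or 2 (0.0600), and Cxcl5 without Ctrl replicate 2 (0.0555), by limma. Ccl2 and Ccl7 split by library: Ccl2 was 223 and 649 FPKM and Ccl7 35.9 and 131 FPKM after 4OHT, against 273 and 283 and against 41.1 and 38.0 FPKM in Ctrl. The first treated library was thus below both controls for both genes and the second above them. Without 4OHT day 6 replicate 1, Ccl7 was called higher (log2 fold change 1.73, limma adjusted p = 0.0371).

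In the siRNA experiment the same 3 genes were called with 4OHT and control siRNA, and Cx3cl1 was called lower. The count was 4 of 9 members, 2 higher and 2 lower, against 5.98% of 11128 genes tested (2.65% higher, 3.33% lower; groups did not overlap in 59.6%), with medians of 0.39 over the members and 0.08 over all genes. Cxcl10 was 50.6 and 44.3 FPKM in siCtrl and 1149 and 222 FPKM in 4OHT/siCtrl libraries (log2 fold change 3.41 ± 0.79, limma adjusted p = 0.0404). Ccl5 was 24.0 and 20.9 FPKM in siCtrl and 519 and 176 FPKM in 4OHT/siCtrl (log2 fold change 3.75 ± 0.49, limma adjusted p = 0.0142). The second 4OHT/siCtrl library, the one with little Irf7, was the lower for both genes, yet it lay above both siCtrl libraries. Without it the log2 fold changes were 4.60 and 4.53, and without the first they were 2.23 and 2.97.

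Cxcl12 was 92.4 and 92.7 FPKM in siCtrl and 22.9 and 15.2 FPKM in 4OHT/siCtrl libraries (log2 fold change -2.30 ± 0.41, limma adjusted p = 0.0211). Cx3cl1, the membrane-tethered ligand of Cx3cr1, was 13.3 and 16.1 FPKM in siCtrl and 6.97 and 5.28 FPKM in 4OHT/siCtrl (log2 fold change -1.26 ± 0.26, limma adjusted p = 0.0299). The groups of neither gene overlapped. Beside them, 4 of 10 fibroblast markers tested were called lower and none higher (median -1.06), with Col3a1 at -2.78, and the part of this in the chemokine values was not tested. The 4 chemokine calls rest on few libraries: none was left without siCtrl replicate 1, siCtrl replicate 2 or siDnmt1 replicate 2, 1 was left without siDnmt1 replicate 1, 2 without 4OHT/siDnmt1 replicate 2, 3 without 4OHT/siDnmt1 replicate 1 or 4OHT/siCtrl replicate 2, and 1 with the fit limited to the groups compared. The call of Cxcl10 was also lost with no filter on low values and with a constant prior variance (limma adjusted p = 0.0587 and 0.0529). Where tested, each kept its sign in these fits.

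**Figure D3:**
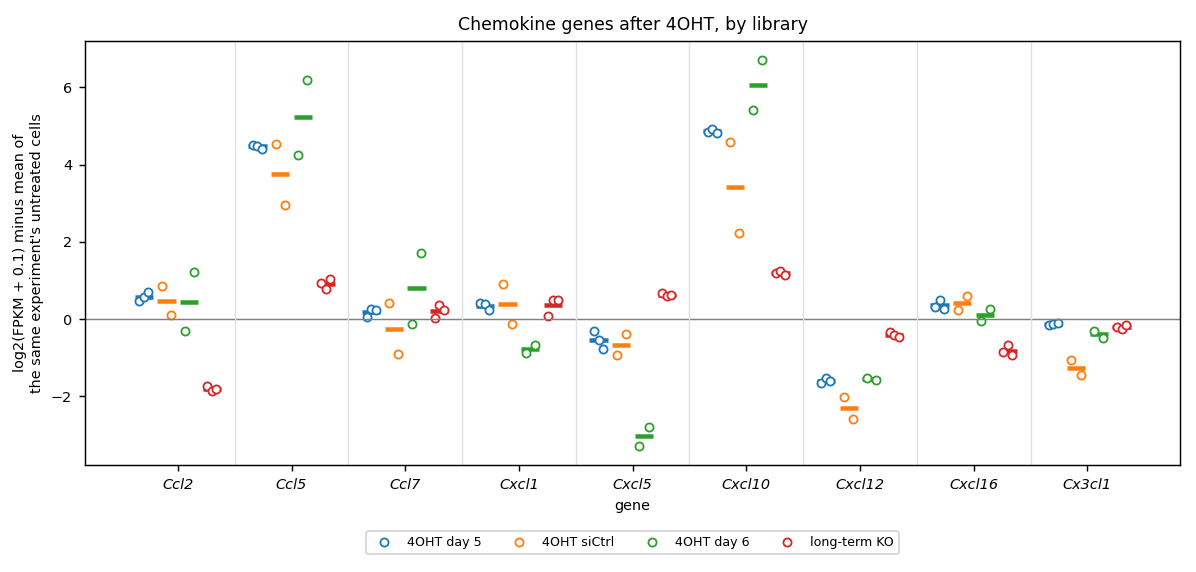
log2(FPKM + 0.1) of each library minus the mean of the untreated cells of its own experiment (y axis), for the 9 genes in the 4 groups given 4OHT without an inhibitor or Dnmt1 siRNA; circles are libraries and bars their means. Cxcl10 and Ccl5 lie above 0 in all libraries shown and Cxcl12 lies below it, with the long-term KO nearest to 0 for all 3.

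Whether these levels persist in a long culture after 4OHT was addressed by the libraries labelled long-term KO. No untreated culture is labelled with the same time, so time in culture and loss of Setdb1 cannot be told apart. Cxcl10 remained above untreated cells, at 2.32 times their mean, and Ccl2 fell to 0.274 of it, while Ccl5 and Cxcl12 lay within 2-fold of untreated cells. Groups did not overlap in 73.8% of genes tested against untreated cells and 73.6% against 4OHT day 5. Against untreated cells 2 of 8 members were called, 1 higher and 1 lower, beside 13.7% of genes tested (7.55% higher, 6.17% lower). Against 4OHT day 5, 5 of 8 were called, 1 higher and 4 lower, beside 12.3% of genes tested (6.43% higher, 5.91% lower). The median log2 fold change of the members was 0.01 in the first comparison and -0.62 in the second, and that of all genes 0.07 and 0.04. Both comparisons share the long-term KO libraries.

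Cxcl10 was 7.93, 8.29 and 7.72 FPKM in the long-term KO, above every untreated library and below every 4OHT day 5 library (log2 fold changes 1.20 ± 0.08 and -3.67 ± 0.08, limma adjusted p = 5.10e-06 and 2.50e-08). Ccl5 was 2.2, 1.98 and 2.40 FPKM, which is a log2 fold change of 0.92 ± 0.17 against untreated cells, short of the fold limit, and of -3.55 ± 0.17 against 4OHT day 5 (limma adjusted p = 0.00155 and 9.99e-07). Without untreated replicate 2 the first of these became a call, at 1.12. Cxcl12 was 34.5, 32.6 and 31.8 FPKM and so lay between the other groups, 2.29 times the 4OHT day 5 mean (log2 fold change 1.19 ± 0.05, limma adjusted p = 3.56e-07).

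Ccl2, the main monocyte attractant, was 37.1, 33.4 and 34.8 FPKM in the long-term KO, below every library of both other groups. Its log2 fold change was -1.80 ± 0.23 against untreated cells and -2.38 ± 0.23 against 4OHT day 5 (limma adjusted p = 0.000204 and 4.55e-05). Its neighbour Ccl7, at 11.4 to 14.2 FPKM, gave no call in either comparison (log2 fold changes 0.22 ± 0.09 and 0.03 ± 0.09). Cxcl16, the ligand of Cxcr6, was 1.84, 2.10 and 1.76 FPKM, and fell against 4OHT day 5 (log2 fold change -1.18 ± 0.17, limma adjusted p = 0.000456; -0.90 and no call with a pseudocount of 1) but not by 2-fold against untreated cells (-0.82 ± 0.17), where it became a call without untreated replicate 3 (-1.02). Cxcl1 was 2.30 to 3.12 FPKM and Cx3cl1 2.55 to 2.79 FPKM, with no call. With no fold limit, 7 of the 8 members would be called against untreated cells, 3 higher and 4 lower. So would 6751 of the 10147 genes tested, so this count is not particular to the members.

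Whether Dnmt1 knockdown acts on these genes, alone or together with 4OHT, was addressed in the siRNA experiment, and limma called 0 of 9 members in each of the 3 comparisons concerned. The background was 4.71% of genes tested for siDnmt1 against siCtrl (2.36% higher, 2.35% lower), 1.46% for 4OHT/siDnmt1 against 4OHT/siCtrl (1.04% higher, 0.422% lower) and 0.216% for the interaction (0.126% higher, 0.0899% lower). At an unadjusted p under 0.05, the counts of members were 3, 1 and 0 of 9. The shares above follow the stricter rule for a call and are no background for these counts. The medians over the members were -0.23, 0.18 and 0.20, beside -0.09, -0.02 and 0.07 over all genes.

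With siDnmt1 alone, 8 of the 9 members nevertheless had groups that did not overlap, a state shared by 72.1% of genes tested. Ccl2 was 445 and 404 FPKM in siCtrl and 218 and 197 FPKM in siDnmt1, and Ccl7 was 123 and 121 against 52.3 and 47.9 FPKM. Their log2 fold changes were -1.03 ± 0.49 and -1.28 ± 0.57 (limma adjusted p = 0.249 and 0.227). Cx3cl1 was 13.3 and 16.1 against 7.25 and 7.60 FPKM, and Cxcl5 was 1.39 and 1.65 against 0.533 and 0.540 FPKM. These give log2 fold changes of -0.97 ± 0.26 and -1.34 ± 0.37 (limma adjusted p = 0.0768 and 0.0816). In the other direction, Cxcl10 was 50.6 and 44.3 against 99.4 and 102 FPKM, and Ccl5 24.0 and 20.9 against 36.4 and 40.7 FPKM (log2 fold changes 1.09 ± 0.79 and 0.78 ± 0.49). Cxcl1 was 4.36 and 4.62 against 9.98 and 8.29 FPKM (1.00 ± 0.32), the last value with bounds of 0 to 20.3 FPKM. The standard errors carry the spread of the 4OHT groups. In a fit of siCtrl and siDnmt1 alone, 5 members passed, beside 924 genes in all. Cxcl10 and Cxcl1 were higher there and Ccl2, Ccl7 and Cxcl5 lower (limma adjusted p = 0.000826 to 0.0105). Cxcl5 passed the filter on low values only through siCtrl and 1 other library, so its values are a description. Without 4OHT/siCtrl replicate 1 or 2, Cxcl1 and Cxcl5 were called. The summed level of 8 endothelial and epithelial markers was 37.8 to 38.6 FPKM with siDnmt1 against 1.00 to 1.34 FPKM in siCtrl. The keratin gene Krt8 made up 36.4 and 36.7 FPKM of it. That sum was 30.1 to 46.2 FPKM in 4OHT/siDnmt1 against 1.60 to 9.57 FPKM in 4OHT/siCtrl. Of 2 such markers tested, only Krt8 was called with siDnmt1 (7.97), and Krt5 was at 0 in all 4 siDnmt1 libraries. Of 10 fibroblast markers tested, 1 was called higher and 1 lower with siDnmt1 (median -0.88, beside -0.09 over all genes). The lower was Pdgfrb, at 32.5 to 34.7 FPKM in siCtrl and 7.52 to 7.75 FPKM in siDnmt1. The part of these markers in the chemokine values was not tested.

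On top of 4OHT, siDnmt1 gave no call in the fit of all libraries. Cxcl10 was 2036 and 745 FPKM in 4OHT/siDnmt1 against 1149 and 222 FPKM in 4OHT/siCtrl (log2 fold change 1.29 ± 0.79), and the groups overlapped, as they did not in 45% of genes tested. Ccl5 was 553 FPKM in the second 4OHT/siDnmt1 library, its only value in that group (0.87 ± 0.60), and 1.15 ± 0.49 with the joined row of the first library counted. Cxcl5 was 0.166 and 0.313 against 0.750 and 1.13 FPKM (-1.62 ± 0.37, limma adjusted p = 0.0923), all near the limit of detection. Cxcl12 stayed low at 11 and 27.1 FPKM, beside 22.9 and 15.2 FPKM in 4OHT/siCtrl. The result turns on the first 4OHT/siCtrl library, without which the log2 fold changes were 1.65 for Ccl5, 2.47 for Cxcl10 and -1.89 for Cxcl5. Only the second library, the one with little Irf7, then stands for 4OHT/siCtrl, and Ccl5 has a single value on each side. These values are a description. The interaction was 0.20 ± 1.12 for Cxcl10, 0.09 ± 0.78 for Ccl5, -0.04 ± 0.58 for Cxcl12 and 1.46 ± 0.81 for Ccl7. With standard errors of this size a 2-fold difference was not detectable.

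**Figure D4:**
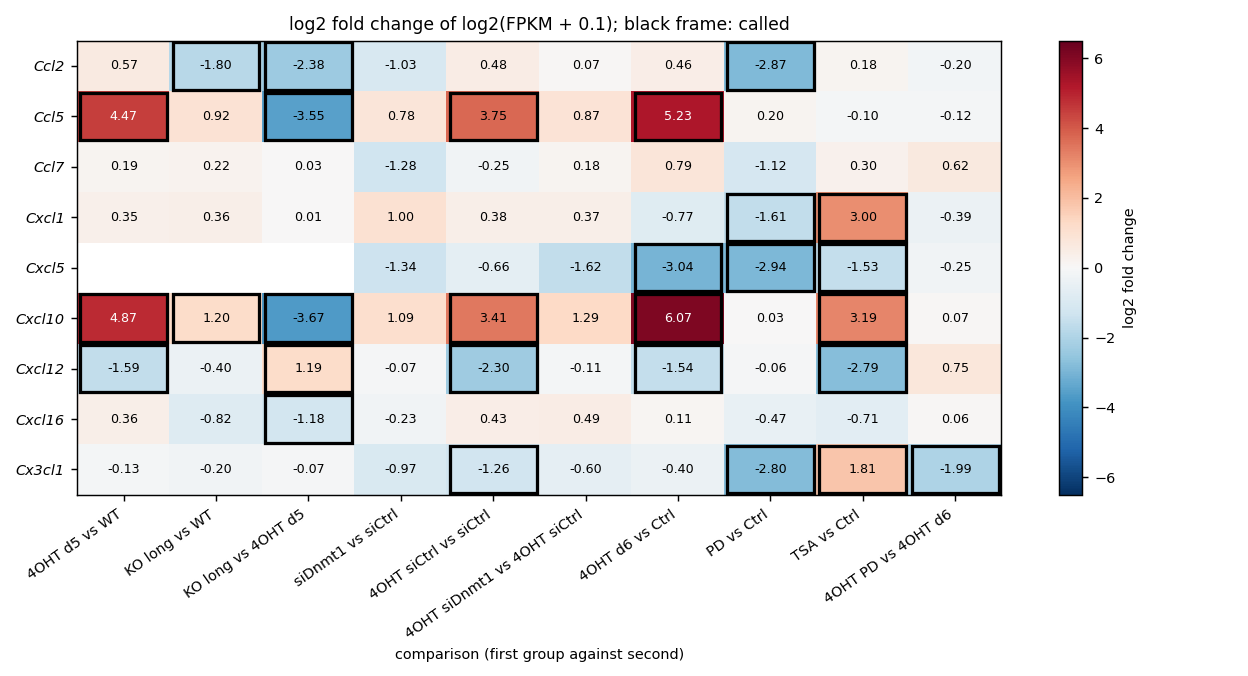
log2 fold change of the 9 members (rows) in the 10 comparisons between groups (columns); colour and number give the value, a black frame marks a call, and white cells were not tested. Cxcl10 and Ccl5 are framed red in the comparisons of 4OHT with untreated cells, and Cx3cl1 is framed blue with PD in both backgrounds.

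MEK sits upstream of ERK, the kinase that many growth and inflammatory signals reach, and PD was used to block it. PD alone lowered Ccl2, Cx3cl1, Cxcl5 and Cxcl1, and raised no member past the test. That is 4 of 9 members called, all lower, against 7.17% of genes tested (3.02% higher, 4.15% lower; groups did not overlap in 64.4%), with a median of -1.12 over the members and -0.07 over all genes. Ccl2 was 273 and 283 FPKM in Ctrl and 51.2 and 28.1 FPKM with PD (log2 fold change -2.87 ± 0.49, limma adjusted p = 0.0104). Cx3cl1 was 5.38 and 5.46 FPKM in Ctrl and 0.617 and 0.780 FPKM with PD (-2.80 ± 0.20, limma adjusted p = 0.000274), the last value with bounds of 0 to 1.97 FPKM. Cxcl5 was 5.17 and 6.18 against 1.00 and 0.408 FPKM (-2.94 ± 0.52, limma adjusted p = 0.0118), and Cxcl1 was 10.9 and 8.83 against 4.01 and 2.45 FPKM (-1.61 ± 0.29, limma adjusted p = 0.0125). No PD library reached the lower Ctrl library for any of these genes. The calls of Ccl2, Cxcl1 and Cxcl5 were lost without Ctrl replicate 1 or 2, which left Cx3cl1 alone (limma adjusted p up to 0.0936 for the others).

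The other 5 members gave no call with PD in the fit of all groups. Ccl7 was 22.7 and 14.5 FPKM against 41.1 and 38.0 FPKM in Ctrl (log2 fold change -1.12 ± 0.57, limma adjusted p = 0.243), and in a fit of these 2 groups alone it was called lower (adjusted p = 0.0487). Cxcl10, at 13.3 and 9.03 FPKM, and Cxcl12, at 123 and 93.9 FPKM, had values on both sides of the Ctrl libraries. Ccl5 was 10.6 and 11.7 FPKM and Cxcl16 2.55 and 4.09 FPKM.

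In 4OHT-treated cells PD lowered Cx3cl1 and no other member passed: 1 of 9 was called, lower, against 3.66% of genes tested (2.29% higher, 1.37% lower), and groups did not overlap in 48.1%. The medians were -0.12 over the members and 0.04 over all genes. Cx3cl1 was 4.39 and 3.80 FPKM with 4OHT and 0.869 and 1.04 FPKM with 4OHT/PD (log2 fold change -1.99 ± 0.20, limma adjusted p = 0.00190), a call that was lost in a fit of these 2 groups alone (adjusted p = 0.0657). Cxcl10 was 692 and 836 FPKM with 4OHT/PD, inside the range of 465 to 1131 FPKM with 4OHT, and Ccl5 was 234 and 490 FPKM, inside 187 to 719 FPKM. Cxcl12 was 91.3 and 45.9 FPKM against 39.0 and 37.7 FPKM (0.75 ± 0.28, limma adjusted p = 0.163), and it was called higher, at 1.25, without 4OHT/PD replicate 2.

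Ccl2 was 269 and 407 FPKM with 4OHT/PD, beside 223 and 649 FPKM with 4OHT, and was not called here. The difference between the effects of PD with and without 4OHT was 2.67 ± 0.70 for Ccl2 and 2.69 ± 0.74 for Cxcl5 on the log2 scale, and neither passed (limma adjusted p = 0.141 and 0.156). Cxcl5 was already at 0.490 and 0.731 FPKM with 4OHT, and was 0.832 and 0.271 FPKM with 4OHT/PD. At such levels a further fall with PD could hardly be seen. Limma called 0 of 9 members for this difference, the interaction of 4OHT and PD, against 0.644% of genes tested (0.458% higher, 0.186% lower). Of those calls 71.1% were higher, and 59.6% and 60.9% with median-ratio scaling and quantile normalization. At an unadjusted p under 0.05, 4 of 9 members passed, and no share of all genes at that threshold is given here. The interaction was 0.80 ± 0.28 for Cx3cl1, 0.04 ± 0.55 for Cxcl10 and -0.32 ± 0.89 for Ccl5.

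**Figure D5:**
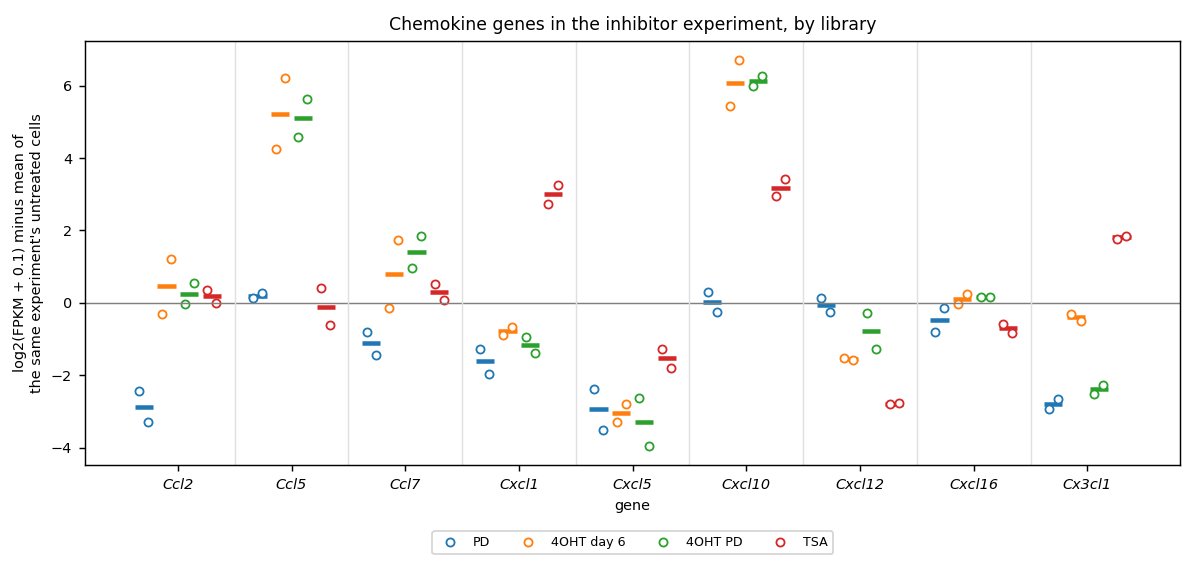
log2(FPKM + 0.1) of each library minus the mean of the Ctrl libraries (y axis) for the 9 genes with PD, 4OHT, both, or TSA; circles are libraries and bars their means. With PD, Cx3cl1 lies far below 0 both without and with 4OHT, while Ccl2 lies far below 0 without 4OHT and near 0 with it.

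TSA raised Cxcl10, Cxcl1 and Cx3cl1 and lowered Cxcl12 and Cxcl5. These are 5 of 9 members, 3 higher and 2 lower, in a comparison that called 31.9% of genes tested (19.1% higher, 12.8% lower), and in which groups did not overlap in 85.5%. The medians were 0.18 over the members and 0.09 over all genes. Cxcl1 was 65.6 and 95.5 FPKM with TSA against 10.9 and 8.83 FPKM in Ctrl (log2 fold change 3.0 ± 0.29, limma adjusted p = 0.000122). Cxcl10 was 84.1 and 115 FPKM against 11.1 and 10.3 FPKM (3.19 ± 0.39, limma adjusted p = 0.000350), and Cx3cl1 was 18.7 and 19.8 FPKM against 5.38 and 5.46 FPKM (1.81 ± 0.20, limma adjusted p = 0.000200). In all 3 genes both treated libraries were above both controls, by 8.17-fold, 9.29-fold and 3.55-fold in the means.

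Cxcl12 was 16.0 and 16.3 FPKM with TSA against 110.2 and 114 FPKM in Ctrl (log2 fold change -2.79 ± 0.28, limma adjusted p = 0.000148), the lowest level of this gene in the inhibitor experiment. Cxcl5 was 2.30 and 1.55 FPKM against 5.17 and 6.18 FPKM (-1.53 ± 0.52, limma adjusted p = 0.0380), a call that was lost without either Ctrl or either TSA library (adjusted p = 0.0773 to 0.190), with a pseudocount of 0.01 (0.0624) or with no filter on low values (0.0568). Ccl5, at 12.8 and 6.30 FPKM, lay on both sides of Ctrl. Ccl2 was 356 and 279 FPKM and Ccl7 56.9 and 41.7 FPKM, with no call, and Cxcl16 was 2.95 and 2.51 FPKM (-0.71 ± 0.25, under the fold limit, but -1.07 and called with quantile normalization). Markers of other cell types moved with TSA: the summed level of 13 leukocyte markers was 62.2 to 68.1 FPKM against 5.60 to 6.06 FPKM in Ctrl, of which the lysosomal marker Cd68 made up 66.9 and 60.5 FPKM, while Adgre1, Cd3e, Ms4a1 and Ncr1 were among those at 0. The summed level of 8 endothelial and epithelial markers was 33.3 to 34.4 FPKM against 1.41 to 1.60 FPKM. Epcam made up 28.1 to 29.2 FPKM of it, and 3 of the 8 reached 1 FPKM with TSA. Epcam and Cdh1 passed the filter on low values only through the TSA libraries. Of 10 fibroblast markers tested, 6 were called lower and 2 higher (median -1.53), with Col3a1 at -3.57, Vim at 1.10 and Thy1 at 1.40. Their part in the chemokine values was not tested.

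The rest of the chemokine system was largely silent. Of 26 other chemokine genes, 2 could be tested in total RNA, 6 in the siRNA and 5 in the inhibitor experiment. Cxcl14, an epithelial and stromal chemokine, was the member of that list called most often: it was 54.0 to 55.9 FPKM in untreated cells and 12.1 to 12.6 FPKM at 4OHT day 5 (log2 fold change -2.14), and it was also called lower in the long-term KO (-2.35), in 4OHT/siCtrl (-4.27), at 4OHT day 6 (-4.26) and with TSA (-3.60). At 4OHT day 6, Cxcl11, another ligand of Cxcr3, and Ccl4, another CC chemokine, were called higher. Cxcl11 went from 0 and 0.0513 FPKM to 3.14 and 15.9 FPKM, and Ccl4 from listed at 0 to 1.26 and 4.15 FPKM. Both reached 1 FPKM in the inhibitor experiment only with 4OHT, so that they were tested only through the groups where they are high, and no fold is given. Ccl9 was called lower in the long-term KO (-1.20, tested mainly through untreated cells, at 1.46 to 1.86 FPKM), at 4OHT day 6 (-1.51) and with PD (-2.46). Ccl11, the eosinophil attractant eotaxin, was called lower with siDnmt1 (-3.59) and with 4OHT/siCtrl (-3.51), and passed the filter only through siCtrl, at 2.48 and 3.45 FPKM. Ccl4 was called higher with siDnmt1, from listed at 0 to 1.83 and 1.87 FPKM. No other gene of that list was called in any comparison.

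Of 23 chemokine receptor genes, 2 to 4 were testable in an experiment. Ackr3, a scavenger receptor of Cxcl12, was 0.173 to 0.263 FPKM in untreated cells and 2.98 to 3.34 FPKM in the long-term KO (log2 fold change 3.35), the only total RNA group in which it reached 1 FPKM. It was called higher with PD too, from 1.97 and 2.26 FPKM to 12.7 and 8.41 FPKM (2.24), and with 4OHT/PD against 4OHT (1.63). Cxcr4, the signalling receptor of Cxcl12, and Ccrl2 were called higher with TSA (3.66 and 2.27), Cxcr4 from at most 0.0485 FPKM to 1.31 and 1.58 FPKM. Cxcr4 reached 1 FPKM in TSA libraries alone within that experiment, so it was tested only through the group where it is high. Ccrl2 was also called higher at 4OHT day 6 (3.84), and Cxcr2, the receptor of Cxcl1 and Cxcl5, lower in the long-term KO against untreated cells (-1.11) and higher in 4OHT/siCtrl (1.23). Against 4OHT day 5, the long-term KO had Ackr3 called higher and Cxcr2 lower, both tested only through the group where they are high. Every member called in a comparison had enough libraries at 1 FPKM outside its high group to be tested without it. Of 6 proteases that cut chemokines, 5 were tested, and the sheddases Adam10 and Adam17 were not called in any comparison, at 13.0 to 15.1 and 16.2 to 17.9 FPKM in untreated cells of the total RNA experiment. Mmp2, which clips Ccl7 and Cxcl12, was called higher with siDnmt1 (2.00) and with 4OHT/siDnmt1 against 4OHT/siCtrl (1.75) and lower in the long-term KO against 4OHT day 5 (-1.40). Mmp9 was called higher in the long-term KO against both other groups (1.30 and 1.49), the only group where it reached 1 FPKM, and Mmp14 lower with TSA (-3.25) and higher with 4OHT/PD against 4OHT (1.08).

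Among 16 genes of the interferon axis, 6 of 13 tested were called higher at 4OHT day 5 and none lower (median log2 fold change 0.88, beside 0.00 over all genes), led by Irf7 (4.96) and the RNA sensor Ifih1 (3.43). At 4OHT day 6, 8 of 15 were called higher and none lower (median 1.34), with Irf7 at 6.79 and Ifnb1, the interferon beta gene, from listed at 0 to 1.01 and 2.03 FPKM. The 8 include Irf8, at 0.134 to 0.247 FPKM against at most 0.0268 FPKM in Ctrl. Irf8 is near the limit of detection there and was tested only through the TSA libraries. In 4OHT/siCtrl, 2 of 14 were called higher, Ifnb1 (from listed at 0 to 0.727 and 4.08 FPKM) and the RNA sensor Ddx58 (2.36, from 1 library with a value in the treated group). Irf7 was 21.2 and 21.5 FPKM in siCtrl against 1.59 and 1.23 FPKM in Ctrl of the inhibitor experiment, beside the higher Cxcl10 and Ccl5 of siCtrl cells. In the long-term KO, 3 of 13 were called higher against untreated cells and 5 lower against 4OHT day 5, and TSA called 2 of 15 higher, Irf8 (5.15, tested only through the TSA libraries) and Irf7 (2.43), and PD 1, Irf7 (1.58). The remaining comparisons called none. Of all genes tested, 3.38% were called at 4OHT day 5, 11.1% at 4OHT day 6 and 5.98% in 4OHT/siCtrl. The shares were 13.7% and 12.3% in the long-term KO against untreated cells and 4OHT day 5, 31.9% with TSA and 7.17% with PD.

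Of 21 genes of NF-kB signalling and inflammatory cytokines, 15 were tested in total RNA, and 1 was called higher at 4OHT day 5, the adhesion molecule Icam1 (1.94, tested only through the 4OHT day 5 libraries), and 1 lower, Ptgs2 (-1.06). In the long-term KO the counts were 1 higher and 3 lower against untreated cells, with Ptgs2 at -2.40 and Lif at -1.92, and 0 and 4 against 4OHT day 5. At 4OHT day 6, 2 of 16 were higher, Il6 (3.18, from at most 0.445 FPKM in Ctrl, near the limit of detection) and Tnfaip3 (1.73), and 1 lower. PD lowered 1, Lif (-1.43), and TSA called 3 higher and 2 lower, with Lif at -2.78, Ptgs2 at 2.24 and Nfkb1 at -2.23. Of all genes tested, PD called 7.17% and TSA 31.9%, so these 2 counts, out of 16 tested, are not particular to this list. None of 16 was called in the siRNA comparisons or for 4OHT/PD against 4OHT. Of 12 targets of the MAPK pathway, PD called 9 lower (median -2.0) and 4OHT/PD against 4OHT 8 lower (median -2.49), with Etv4 at -6.46 and -6.31 and Spry4 at -5.42 and -3.28. In the long-term KO, 8 of the 12 were also called lower against untreated cells and 1 higher (median -1.23), with Etv4 at -3.39. None of the 12 was called at 4OHT day 5, with either siDnmt1 comparison or for an interaction. In the long-term KO against 4OHT day 5, 9 were lower and 1 higher. In 4OHT/siCtrl and at 4OHT day 6, 1 was higher and 1 lower. TSA called 3 higher and 1 lower, again not particular to this list. Shares of all genes called were 3.38% at 4OHT day 5, 11.1% at 4OHT day 6 and 5.98% in 4OHT/siCtrl. They were 13.7% and 12.3% in the long-term KO against untreated cells and 4OHT day 5, and 3.66% for 4OHT/PD against 4OHT.

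The genes most like each member were sought by the correlation of group means of log2(FPKM + 0.1), centred within each experiment, over 12 groups and 9834 genes. The values describe shared patterns over groups that share controls, and carry no test. Ccl5 was most like Oasl1 (r = 0.990), Ddx58 (0.985) and Rsad2 (0.980), and Cxcl10 most like Ifih1 (0.956), Rsad2 (0.954) and Helz2 (0.953). Ccl5 and Cxcl10 had r = 0.936 with each other. Cxcl12 was most like Fzd2 (0.955), Morf4l2 (0.948) and Oat (0.946). Cxcl1 was most like Gchfr (0.988), Ndrg2 (0.978) and Usp2 (0.975). Cx3cl1 was most like Phlpp1 (0.953), Prkar2b (0.941) and Arc (0.936), and Cxcl16 most like Appbp2 (0.978), Zbtb33 (0.926) and Irf1 (0.925). Ccl2 was most like Galnt12 (0.933), Stxbp2 (0.912) and Rab20 (0.901), and Ccl7 most like Cdca5 (0.866), Urm1 (0.862) and Hist2h3b (0.855). The neighbours Ccl2 and Ccl7 had r = 0.731.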

How the data were processed

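RNA-seq of 27 libraries in 12 groups was used. The deposited FPKM values, with confidence bounds, were made by the authors with TopHat2 2.0.12 (mm9, RefSeq gene models) and Cufflinks, with multi-hit reads reported at 1 position (-g 1) per the study's methods, so that reads of near-identical copies may be split between them; strand use in counting is not given in the sources used here. Also deposited were tables of the authors' own comparisons between groups (fold changes and tests), which were not used. In the siRNA and inhibitor files genes were found by name, and in the total RNA files, which carry assembled loci, by the smallest row covering 95% of the gene's locus. A row naming 2 genes gave a value to neither. Values were log2(FPKM + 0.1), a scale that understates the change of low genes. Genes were kept if each group had a value and if the number of libraries reaching 1 FPKM was no less than the size of the smallest group. They were tested with limma 3.58.1 (trend, R 4.3.3), all groups of an experiment in 1 fit, with Benjamini-Hochberg adjustment over all genes tested. Calls needed an adjusted p under 0.05 and a 2-fold change. An exact two-sided permutation test of a single gene cannot go below p = 0.1 with 3 against 3 libraries or 0.333 with 2 against 2. Depth is an estimate from the confidence bounds of single-exon genes of at least 1000 bases. The tests were tried on simulated data. The plot of log2 fold changes shows all 9 members in each of the 10 comparisons between groups, with white cells where untested. The text gives every called member, but not every member without a call in each comparison or interaction. Of each other gene list, counts are given with up to 4 called genes, and for each member but Cxcl5 the 3 genes most like it. The members and lists were chosen with earlier results of these data known. Alternatives covered the pseudocount, filters, scaling, the samples fitted, a replicate block, the prior variance and each library left out.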

Additional observations from a re-analysis of the deposited data

Results flagged for a closer look

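Rows outside the comparisons carried a signal at 3 member loci that the control libraries of the same experiment did not have. In the first 4OHT/siDnmt1 library a single row of 813 FPKM covered Ccl5 and its neighbour Heatr9, so this library gave Ccl5 no value of its own; counted for Ccl5, it gave a log2 fold change of 1.15 for 4OHT/siDnmt1 against 4OHT/siCtrl, with no call. In total RNA, rows with no matching gene overlapped Ccl2 in the first 4OHT day 5 library (6.05 FPKM) and Cxcl1 in the third (1.38 FPKM), beside the rows of the genes themselves. No group of 4 to 10 libraries exists, so no library was tested as an outlier of its group.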

How the results depend on the processing

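Over the alternatives run, 324 of 334 values of called members kept their call when a setting changed and 230 of 261 when 1 library was left out, and all kept their sign. The first count includes the setting with no fold limit, which by construction cannot remove a call. With no fold limit, 7 members were called in the long-term KO against untreated cells, beside 6751 of the 10147 genes tested. With only the groups compared in the fit, 5 members were called for siDnmt1 against siCtrl, 1 for 4OHT/siCtrl and 0 for 4OHT/PD against 4OHT, and Ccl7 was also called with PD (adjusted p = 0.0487); by construction fewer libraries then estimate the spread. With a constant prior variance, 1 was called for siDnmt1 and 1 for 4OHT/siDnmt1 against 4OHT/siCtrl, Cxcl5 in both, and Cxcl10 in 4OHT/siCtrl lost its call, as it did with no filter on low values (adjusted p = 0.0529 and 0.0587); the cause was not tested. Cxcl16 in the long-term KO against 4OHT day 5 lost its call with a pseudocount of 1 (-0.90), Cxcl5 with TSA with a pseudocount of 0.01 or no filter (adjusted p = 0.0624 and 0.0568), and Cxcl16 with TSA became a call with quantile normalization (-1.07). Without 1 library in turn, the members called ranged from 0 to 2 for siDnmt1, 0 to 4 for 4OHT/siCtrl, 0 to 3 for 4OHT/siDnmt1 against 4OHT/siCtrl, 2 to 5 for 4OHT day 6, 1 to 4 for PD and 1 to 2 for 4OHT/PD against 4OHT.

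Only values without a call changed sign. In the long-term KO against 4OHT day 5, median-ratio scaling gave -0.013 for Ccl7 and -0.033 for Cxcl1, and quantile normalization -0.064 for Cxcl1. A pseudocount of 1 gave 0.0695 for the siRNA interaction of Cxcl5. Median-ratio scaling gave 0.025 for Cxcl12 with siDnmt1, 0.0044 for Cxcl12 with PD and -0.067 for the PD interaction of Cxcl10, and quantile normalization -0.039 for Cxcl16 with 4OHT/PD against 4OHT. Without 1 library in turn, log2 fold changes crossed 0 as follows. In the long-term KO against 4OHT day 5, Ccl7 ran from -0.041 to 0.12 and Cxcl1 from -0.0635 to 0.15. Cxcl12 ran from -0.14 to 0.0001 with siDnmt1. In 4OHT/siCtrl, Cxcl1 ran from -0.13 to 0.90 and Ccl7 from -0.91 to 0.41. For 4OHT/siDnmt1 against 4OHT/siCtrl, Cxcl12 ran from -0.76 to 0.54, Ccl2 from -0.70 to 0.84, Ccl7 from -0.58 to 0.94 and Cxcl1 from -0.14 to 0.89. The siRNA interaction ran from -0.69 to 0.87 for Ccl5, -0.69 to 0.61 for Cxcl12, -0.99 to 1.38 for Cxcl10 and -0.60 to 0.036 for Cxcl5. At 4OHT day 6, Ccl2 ran from -0.31 to 1.22, Ccl7 from -0.14 to 1.73 and Cxcl16 from -0.0395 to 0.25. With PD, Cxcl10 ran from -0.24 to 0.31 and Cxcl12 from -0.25 to 0.14, and with TSA Ccl5 from -0.61 to 0.40. For 4OHT/PD against 4OHT, Ccl7 ran from -0.31 to 1.55, Cxcl10 from -0.57 to 0.71, Cxcl16 from -0.089 to 0.20, Ccl2 from -0.97 to 0.57, Ccl5 from -1.09 to 0.86 and Cxcl5 from -0.92 to 0.41. The PD interaction ran from -0.61 to 0.68 for Cxcl10 and from -1.29 to 0.66 for Ccl5.

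Replicate numbers are shared between groups, but same-numbered libraries deviated together in only part of the inhibitor experiment (r = 0.206 to 0.259 among PD, 4OHT day 6 and 4OHT/PD, from -0.049 to 0.123 in total RNA and from -0.068 to 0.015 in the siRNA experiment), and no label gives the number a meaning, so the number was not taken as a pairing, although those 3 groups share a deviation by number. With a replicate block, Cx3cl1 in 4OHT/siCtrl lost its call (log2 fold change -1.26, limma adjusted p = 0.0513), no other call of the 9 members changed, the calls of Ccl4 with siDnmt1, Mmp2 with 4OHT/siDnmt1, Ccl9 at 4OHT day 6 and Mmp14 with 4OHT/PD were lost (adjusted p = 0.0627, 0.0932, 0.0585 and 0.0535), and over all genes the calls for 4OHT/siDnmt1 against 4OHT/siCtrl went from 163 to 86 and for the siRNA interaction from 24 to 14. Over all genes the counts moved by over 1.5 times with no fold limit at 4OHT day 5 (216 higher and 127 lower, against 3602 in all), in the long-term KO against untreated cells (1392 to 6751) and against 4OHT day 5 (1252 to 6629), at 4OHT day 6 (1313 to 2931), with siDnmt1 (524 to 868), 4OHT/siCtrl (666 to 1509), PD (846 to 1602), TSA (3763 to 6553) and 4OHT/PD against 4OHT (432 to 793), and with only the groups compared for 4OHT/siCtrl (666 to 195), siDnmt1 (524 to 924), 4OHT/siDnmt1 against 4OHT/siCtrl (163 to 22) and 4OHT/PD against 4OHT (432 to 92). A filter of 5 FPKM, which tests fewer genes, gave 204, 870 and 774 in the 3 total RNA comparisons, 294 for siDnmt1 and 84 for 4OHT/siDnmt1 against 4OHT/siCtrl, and no filter gave 568 at 4OHT day 5, 247 for 4OHT/siDnmt1 and 58 for the siRNA interaction. That interaction also went to 39 with a pseudocount of 1, 57 with a constant prior variance and 46 with joined rows counted, which gave 246 for 4OHT/siDnmt1. Without 1 library in turn the siRNA comparisons ran from 92 to 915 (siDnmt1), 116 to 1164 (4OHT/siCtrl) and 59 to 957 (4OHT/siDnmt1 against 4OHT/siCtrl). Counting joined rows and using only genes with a value in every library were chosen after seeing the data. The depth limits Cxcl5, at most 0.999 FPKM in total RNA, and Ccl5 in untreated cells.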
